A study of Mus musculus with 6 samples.

Results

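The small leucine-rich proteoglycans are secreted matrix proteins built around a run of leucine-rich repeats, and many of them carry chondroitin, dermatan or keratan sulfate chains. They bind collagen fibrils and control their width and spacing. Several also bind growth factors of the TGF-beta family or cell surface receptors. In the eye they are known from the cornea and sclera, and opticin, the product of Optc, is a component of the vitreous that is made by the non-pigmented epithelium of the ciliary body. By sequence, Dcn and Bgn belong to class I of the family, Prelp, Fmod, Lum and Omd to class II, and Optc, Ogn and Epyc to class III. The 9 genes described here were Optc, Ogn, Prelp, Fmod, Bgn, Dcn, Lum, Epyc and Omd. Every probe that the platform annotation assigns to 1 of these symbols was taken, which gave 17 of the 45281 probes and 9 of the 19057 named genes on the array. The family was selected on the knockout and wild-type values of these same arrays, in which Optc and Ogn were known to be low in the knockout, so their values are given as a description with no p of their own, and any count of members past the fit's threshold describes that choice.

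RNA from isolated retinas was hybridised to 1-colour Illumina mouse BeadChips, with 3 arrays from Vldlr knockout mice and 3 from wild-type mice. The receptor for very low density lipoprotein that Vldlr encodes is the only altered gene product that the labels name. Both groups carry the background strain entry JAX, which names no strain, and neither age nor sex is given in the sources used here. The source names are Jax WT and Vldlr KO, and the sample titles start with C for wild-type and E for knockout. Anything that these labels stand for cannot be told apart from genotype. The labels do not tie the arrays of a group to separate animals, so errors and p-values cover the spread of these arrays, which may be technical. Between 18710 and 20974 probes per array had a detection p under 0.05, the limit used here for a signal above background, and the number of arrays limits the precision. On its brightest probe Vldlr had a log2 signal of 10.26 ± 0.128 in knockout and 11.44 ± 0.207 in wild-type arrays (SD, n = 3 each), a difference of -1.17 (limma adjusted p = 0.00946). Its other bright probes differed by -1.26 and -1.22 (limma adjusted p = 0.0265 and 0.0334). Its dim tested probes differed by 0.23 and 0.02 (limma adjusted p = 0.857 and 0.992). The positions of these probes in the gene are not known here, so they cannot check the genotype. The call on the brightest Vldlr probe was lost without knockout replicate 1 (-1.12, limma adjusted p = 0.0719) and without knockout replicate 2 (-1.15, limma adjusted p = 0.0724). Rod markers, the check of the tissue, were bright in both groups, with a mean log2 signal of 12.54 to 12.95 over the 9 tested genes in knockout and 12.46 to 12.64 in wild-type arrays, and 0 of them passed the test, with a median difference of 0.06. Of the brightest 2, Pde6b differed by 0.06, while Gnat1 lay at the top of the scale, where quantile normalization gave the wild-type arrays an SD of 0, so its difference is not informative. Nrl and Prph2 were at 0.49 each (limma adjusted p = 0.441 and 0.428). Lens markers were highest in knockout replicate 1, with a mean log2 signal of 10.7 over 11 genes.

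Optc and Ogn, the members with the largest differences, lie on different chromosomes, and their promoters are shown because the data turn on these genes. The windows run from 250 bases before to 50 after the annotated start in RefSeq's GRCm38.p6, and the table held 7 of the 9 members. Optc lies on the minus strand at chr1:133907950-133908249 and Ogn on the plus strand at chr13:49607765-49608064. Capitals mark letter matches to the E-box (CANNTG, searched on both strands) and the TATA box (TATAAA or its reverse complement TTTATA), at any distance from the start.
Optc promoter: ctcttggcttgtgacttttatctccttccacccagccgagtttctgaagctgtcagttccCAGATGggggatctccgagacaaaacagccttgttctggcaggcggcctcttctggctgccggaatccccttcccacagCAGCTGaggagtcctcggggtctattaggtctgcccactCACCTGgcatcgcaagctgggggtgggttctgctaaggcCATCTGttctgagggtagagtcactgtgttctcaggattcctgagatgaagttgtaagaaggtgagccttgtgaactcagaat
Ogn promoter: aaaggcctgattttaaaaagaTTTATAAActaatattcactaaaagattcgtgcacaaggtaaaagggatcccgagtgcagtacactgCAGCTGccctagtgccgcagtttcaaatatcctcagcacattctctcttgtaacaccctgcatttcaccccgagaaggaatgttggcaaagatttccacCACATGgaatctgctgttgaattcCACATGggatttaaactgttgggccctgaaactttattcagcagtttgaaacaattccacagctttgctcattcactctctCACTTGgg
Each window held 4 E-boxes, a motif found in 72.3% of the 32851 promoter windows of the table. The Ogn window held TTTATA at bases 22 to 27 and the overlapping TATAAA at bases 24 to 29, counted from its 5′ end. These matches lie at the upstream end of the window, far from the annotated start. The Optc window held neither, against 13.6% of all windows with at least 1. The core motif of OTX homeodomain proteins, TAATCC or GGATTA, occurred in none of the 8 windows of the members (Epyc has 2) and in 7.06% of all windows. The GC box (GGGCGG or CCGCCC) occurred in the Bgn window alone, with 3 sites, and in 35.7% of all windows. The GC content was 54.3% in the Optc window and 42.3% in the Ogn window, beside a median of 52.7% over the table.

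Optc was near background on every knockout array and clearly above it on every wild-type array. Its only probe had a normalized log2 signal of 4.81, 4.82 and 4.76 in knockout replicates 1 to 3, against 7.74, 7.75 and 7.72 in wild-type replicates 1 to 3. The groups were far apart and each was tight, with means of 4.80 ± 0.034 in knockout and 7.74 ± 0.019 in wild-type arrays (SD, n = 3 each). The difference, knockout minus wild-type, was -2.94 (SE 0.153), which leaves 13.0% of the wild-type signal on this scale. The authors' background-subtracted intensities were 9.9, 11 and 12 in knockout and 169.1, 207.8 and 205.4 in wild-type arrays. The probe was above background on 2 of 3 knockout arrays, with a detection p of 0.0545 in the array that missed, so the size of the difference is limited by background. In RNA of a whole tissue, fewer cells of a type and less RNA per cell cannot be told apart.

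Ogn encodes osteoglycin, also called mimecan, a keratan sulfate proteoglycan in cornea that binds collagen fibrils. Its bright probe had log2 signals of 5.32, 4.997 and 5.18 in knockout replicates 1 to 3, against 7.37, 7.16 and 6.72 in wild-type replicates 1 to 3. All knockout arrays lay below all wild-type arrays, and the wild-type arrays were the more spread, with wild-type replicate 3 the lowest. The means were 5.17 ± 0.164 in knockout and 7.09 ± 0.333 in wild-type arrays (SD, n = 3 each), a difference of -1.92 (SE 0.21), or 26.5% of the wild-type signal on this scale. The background-subtracted intensities were 19.8, 15 and 25.9 in knockout and 127.2, 130.2 and 99.6 in wild-type arrays. This probe was above background on all 6 arrays. The other 2 Ogn probes were above background on 0 arrays and give no information on the difference, so that Ogn, like Optc, rests on 1 probe.

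**Figure D1:**
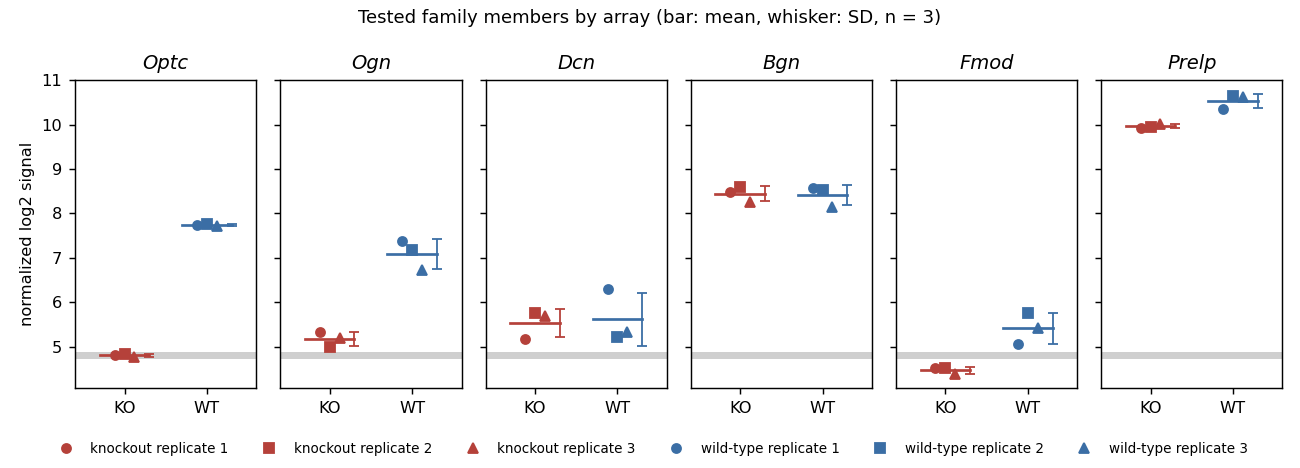
Normalized log2 signal (vertical axis) of the 6 tested members on each array, with knockout (KO, red) left of wild-type (WT, blue). Symbols are arrays, bars are means, whiskers are SD (n = 3), and the grey band spans the lowest signal called above background on each array, 4.72 to 4.87. Optc and Ogn are separated by -2.94 and -1.92, Bgn and Dcn overlap.

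Of the class II members, Prelp and Fmod were also lower in sign. Prelp encodes a heparin-binding protein that links basement membranes to collagen. Its log2 signal was 9.93, 9.96 and 10.02 in knockout replicates 1 to 3, against 10.36, 10.64 and 10.62 in wild-type replicates 1 to 3. The groups did not overlap, with a gap between the highest knockout and the lowest wild-type array that was wider than the range within either group. Knockout arrays lay below wild-type arrays without overlap in 10.1% of all genes tested, and Prelp did not pass the fit's threshold. Means were 9.97 ± 0.044 in knockout and 10.54 ± 0.157 in wild-type arrays (SD, n = 3 each), a difference of -0.57 (SE 0.165), or 67.4% of the wild-type signal. Fmod encodes fibromodulin, a keratan sulfate proteoglycan that binds type I collagen. On its brighter probe the log2 signal was 4.51, 4.51 and 4.38 in knockout replicates 1 to 3, against 5.07, 5.76 and 5.41 in wild-type replicates 1 to 3. The probe was not well above background on any knockout array and above it on all 3 wild-type arrays, so it could enter the fit only as lower. As a description, its signal was at least 1.55-fold lower on the knockout arrays. The bound sets the wild-type mean against the knockout mean in which an array's value is replaced by the dimmest signal detected on that array wherever this is higher, and the measured difference was -0.95 (SE 0.205), against -0.49 with quantile normalization of raw signal and -0.46 with an offset of 50. Its other probe was above background on 0 arrays.

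The class I members showed no separation of the groups. Bgn encodes biglycan, which carries chondroitin or dermatan sulfate chains and can signal through Toll-like receptors. Its log2 signal was 8.49, 8.59 and 8.26 in knockout replicates 1 to 3, against 8.57, 8.53 and 8.15 in wild-type replicates 1 to 3. The groups overlapped almost entirely, and the difference was 0.03 (SE 0.188). Dcn encodes decorin, which binds collagen and TGF-beta. The 1 of its 4 probes above background had log2 signals of 5.16, 5.75 and 5.68 in knockout replicates 1 to 3, against 6.30, 5.21 and 5.32 in wild-type replicates 1 to 3. Wild-type replicate 1 was the highest array and the others overlapped, with a difference of -0.08 (SE 0.305). Leaving out 1 array at a time moved the Dcn difference between -0.28 and 0.27 and the Bgn difference between -0.11 and 0.12, so neither has a direction in these arrays.

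The remaining members gave almost no signal. Lum encodes lumican, the keratan sulfate proteoglycan of the corneal stroma, and its 2 probes were above background on 0 arrays. Omd, the gene of osteomodulin, a keratan sulfate proteoglycan first described in bone, had 1 probe that was above background on 0 arrays. Epyc encodes epiphycan, a class III proteoglycan of growth cartilage. It had 2 probes, and 1 of them passed the detection limit on a single array, wild-type replicate 3, with a detection p of 0.0235. These 5 probes had raw signals of 42.8 to 67.4 in knockout and 45.8 to 79.5 in wild-type arrays, near the background constants of 57.2 to 69.1 that the authors subtracted. No level or difference can be read from them.

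**Figure D2:**
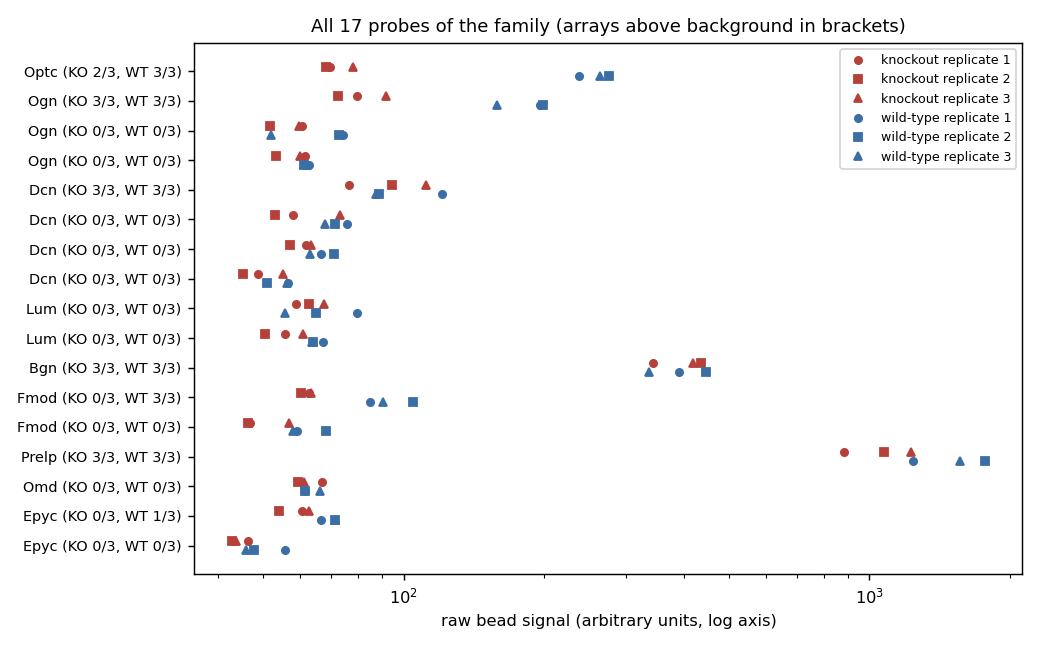
Raw bead signal (horizontal log axis, arbitrary units) of all 17 probes on each array, with knockout in red above wild-type in blue. Brackets give the arrays above background, and 10 of the 17 probes were above background on 0 arrays.

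Across the family, 6 of the 17 probes, from 6 of the 9 genes, were above background on at least 3 of 6 arrays and entered the fit over all 19921 such probes. In that fit 2 of the 6 genes, Optc and Ogn, had a limma adjusted p under 0.05, both lower in the knockout, beside 2.29% of the 11089 genes tested when each is read by its brightest tested probe (1.62% lower). The knockout arrays lay below the wild-type arrays without overlap in 4 of the 6 genes and above them in 0, beside 10.1% of all genes below and 8.77% above. The median difference of the 6 was -0.76, beside 0.01 over all genes tested. These counts describe the contrast that led to the choice of the family and support nothing further. Fmod passed the detection limit through the wild-type arrays alone.

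The genes of the family lie in 3 clusters and 1 single position, by the gene order in GRCm38.p6. Optc, Prelp and Fmod follow each other on chromosome 1, and all 3 were lower in sign, at -2.94, -0.57 and -0.95. Of the protein-coding genes on either side of that cluster, the calcium pump gene Atp2b4 differed by 0.06 (SE 0.195, limma adjusted p = 0.932) and Btg2 was above background on 0 arrays. Ogn closes a run of Ecm2, Aspn, Omd and Ogn on chromosome 13, in which the probes of Ecm2, Aspn and Omd were above background on 0 arrays. Cenpp, a centromere gene that starts before that run, differed by 0.41 (SE 0.213, limma adjusted p = 0.493). The order is by start position, so whether Cenpp spans the run was not examined. On chromosome 10, Dcn, Lum, Kera and Epyc follow each other, and Dcn alone was measured well enough to be tested. Bgn lies apart on chromosome X, beside Atp2b3, a calcium pump gene that differed by -0.20 (SE 0.344, limma adjusted p = 0.856).

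The genes with the most similar profiles over the 6 arrays were found by the root mean square difference between log2 profiles, each centred on its own mean, over 11088 other tested genes. The arrays, and with them the 2 genotypes, are shared by all profiles, so closeness mostly reflects a group difference of the same size. Nearest to Optc were Gfpt1 (0.0897 log2 units apart, difference -2.89), Bmp4 (0.112, -2.93), Otx1 (0.165, -3.09), B3galt6 (0.176, -3.12) and Fcer1g (0.202, -2.94). Nearest to Ogn were Slc6a13 (0.143, -1.79), Zfp874b (0.15, -2.17), Rdm1 (0.156, -1.99), Nt5c3 (0.157, -1.94) and Slc25a18 (0.165, -2.11). Fcer1g and Slc25a18 were above background on 0 of 3 knockout arrays and 3 of 3 wild-type arrays, so their differences and places are limited by background. Optc and Ogn were 0.552 apart. Ogn ranked 60 among the genes nearest to Optc, and Optc ranked 154 among those nearest to Ogn. The knockout values of Optc lay near background, so its distances are limited by background too.

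Few relatives and partners of the family passed the test. Of 8 further small leucine-rich repeat genes, 7 had probes and only Nyx was tested. Nyx encodes nyctalopin, which anchors the signalling complex at ON bipolar cell dendrites, and it had a log2 signal of 7.47 ± 0.119 in knockout and 7.20 ± 0.396 in wild-type arrays (SD, n = 3 each, limma adjusted p = 0.689). Aspn, Kera, Ecm2, Chad and Podnl1 were above background on 0 arrays. Of 20 tested genes that build or sulfate glycosaminoglycan chains 1 fell, 0 rose and 19 did not pass, with a median difference of -0.05. The gene that fell was B3galt6, which adds a galactose to the linker between core protein and chain, with 5.36 ± 0.176 in knockout and 8.48 ± 0.173 in wild-type arrays (SD, n = 3 each, limma adjusted p = 4.08e-05). Its other probe differed by -1.40.

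Of 7 tested fibrillar and fibril-associated collagens, to whose fibrils the family binds, 0 passed, 5 were lower and 2 higher in sign, and the median difference was -0.62. Col5a1, which limits fibril width, had 6.83 ± 0.355 in knockout and 7.85 ± 0.218 in wild-type arrays (SD, n = 3 each, limma adjusted p = 0.0618). Of the vitreous collagen genes, Col2a1, Col9a1 and Col9a2 differed by -0.81, -0.93 and -0.62 (limma adjusted p = 0.116, 0.113 and 0.235). Of the 18 listed collagens with probes 11 were not tested, among them Col9a3 and Col11a1, which were above background on 0 arrays. The 2 higher in sign were Col16a1 (0.60, limma adjusted p = 0.404) and Col6a1 (0.28, limma adjusted p = 0.653). The list had 1 member that passed as lower without wild-type replicate 1, without wild-type replicate 3 and with median scaling, and 3 with array weights.

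In the other lists single genes moved. Of 20 tested proteoglycans of other families 1 rose, 0 fell and 19 did not pass, with a median of -0.01. Spock1, a testican of neurons, rose by 0.77 on the log2 scale (limma adjusted p = 0.045), with 7.62 ± 0.103 in knockout and 6.85 ± 0.034 in wild-type arrays (SD, n = 3 each), a call lost when any 1 of the 6 arrays was left out (0.72 to 0.82, limma adjusted p from 0.0591 to 0.291). Of 13 tested proteases and inhibitors 1 fell, 0 rose and 12 did not pass, with a median of 0.09. Adamts9, a protease that cleaves large chondroitin sulfate proteoglycans, was above background on 0 of 3 knockout and 3 of 3 wild-type arrays and was at least 4.68-fold lower (limma adjusted p = 0.000468). It passed the detection limit through the wild-type arrays alone and so could only enter as lower, and its difference was -2.60, against -1.51 with quantile normalization of raw signal and -1.57 with an offset of 50. With any 1 wild-type array left out Adamts9 no longer met the detection limit and was not tested. Of 15 tested TGF-beta pathway genes and of 9 tested receptors for decorin, biglycan or lumican 0 passed, with medians of -0.15 and 0.13. In the TGF-beta list 1 gene was called lower with quantile normalization of raw signal, an offset of 50, no detection filter, a trended variance or array weights. The smallest p in these lists belonged to Tgfbr1, a type I receptor of TGF-beta (-0.66, limma adjusted p = 0.0792), and to Lrp1, an endocytic receptor that binds decorin (0.39, limma adjusted p = 0.469). The background for these counts is 1.62% of all tested genes called lower and 0.667% called higher.

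**Figure D3:**
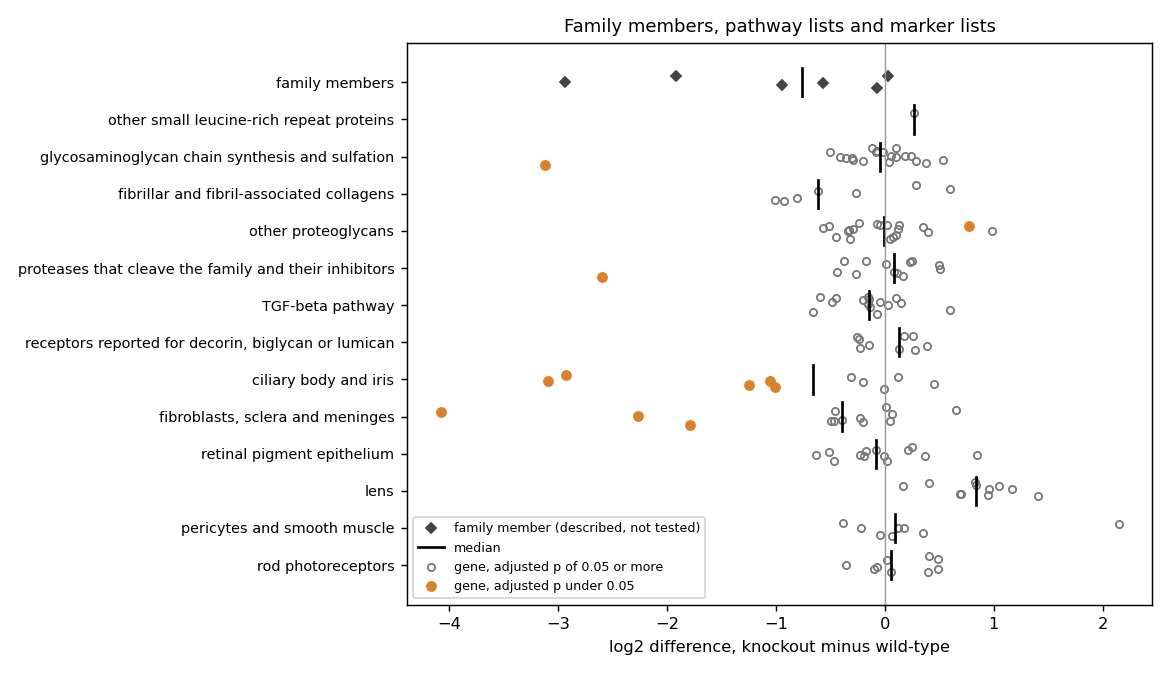
Log2 difference, knockout minus wild-type (horizontal axis), of the 6 tested members (diamonds) and of the tested genes of each pathway and marker list (circles), with the median as a black line. Filled orange circles have a limma adjusted p under 0.05. The ciliary body and iris list holds 5 of these, all lower, and the list of fibroblasts, sclera and meninges 3, all lower.

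Some markers of tissues next to the retina fell on the arrays on which Optc and Ogn were low. Of 15 ciliary body and iris markers 10 were tested, and 5 fell, 0 rose and 5 did not pass, beside 1.62% of all tested genes called lower and 0.667% called higher, with a median of -0.66. Otx1, a homeodomain factor, had a log2 signal of 5.70 ± 0.131 in knockout and 8.79 ± 0.21 in wild-type arrays (SD, n = 3 each, limma adjusted p = 4.17e-05). Bmp4, a growth factor needed for ciliary body formation, had 5.72 ± 0.218 in knockout and 8.65 ± 0.049 in wild-type arrays (SD, n = 3 each, limma adjusted p = 4.74e-05). The zinc finger factor Zic1 (-1.25, limma adjusted p = 0.0136), the secreted inhibitor Wfdc1 (-1.06, limma adjusted p = 0.0236) and the homeobox gene Msx1 (-1.01, limma adjusted p = 0.0416) fell too. Over the 10 genes the mean log2 signal was 6.69 to 6.75 in knockout and 7.58 to 7.70 in wild-type arrays, without overlap, but their summed background-subtracted intensities overlapped, at 2334.5 to 3311.6 in knockout and 3219.4 to 4046.5 in wild-type arrays. The water channel gene Aqp1, the brightest of the list, was at 0.45 (limma adjusted p = 0.399) and did not pass. The growth factor Tgfb2 (-0.20), Slc4a2 (-0.31), Des (0.12) and Foxc1 (-0.0049) did not pass either, so the lower mean rests mainly on the 5 genes that fell. Foxc2 and Lmx1b were above background on 0 arrays. The list was written with earlier results of these arrays in view. Its count was 3 with median scaling and with the authors' normalized table, and 2 with no detection filter. The count was also 2 with the number in the sample titles as a block, a fit that rests on 2 pairs of arrays. It was 3 without wild-type replicate 1, 2 without wild-type replicate 2, 2 without knockout replicate 1, 2 without knockout replicate 2 and 3 without knockout replicate 3, through Zic1, Wfdc1 and Msx1, while Otx1 and Bmp4 were called with every array left out in turn.

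Of 20 markers of fibroblasts, sclera and meninges 13 were tested, and 3 fell, 0 rose and 10 did not pass, beside the same shares of all tested genes, with a median of -0.40. Pdgfrl was at 0.65 (limma adjusted p = 0.127). Slc13a4, a sulfate transporter of the meninges, had 4.81 ± 0.286 in knockout and 8.88 ± 0.072 in wild-type arrays (SD, n = 3 each, limma adjusted p = 1.31e-05) and was above background on 2 of 3 knockout arrays. The matrix protein gene Fbln1 had 6.54 ± 0.218 in knockout and 8.81 ± 0.172 in wild-type arrays (SD, n = 3 each, limma adjusted p = 0.00028), and the GABA and taurine transporter gene Slc6a13 had 6.88 ± 0.159 in knockout and 8.67 ± 0.299 in wild-type arrays (SD, n = 3 each, limma adjusted p = 0.00161). The mean over the 13 genes was 5.46 to 5.69 in knockout and 6.10 to 6.45 in wild-type arrays, and the summed background-subtracted intensity 502.6 to 595.1 in knockout and 1521.6 to 1995.5 in wild-type arrays. Mean and sum both include the 3 genes that fell, and of the 13 genes 9 were lower and 4 higher in sign. The defining fibroblast collagens were at or near background in both groups: Col3a1 on 0 arrays above it, Col1a1 on 1 and Col1a2 on 2 of 6, and Twist1, Dpt and Slc22a6 on 0. The part of either tissue in the low Optc and Ogn signals was not tested.

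In the marker lists of the pigment epithelium, mural cells and lens no gene passed the test. Of 13 tested pigment epithelium markers 0 passed, and their mean log2 signal was 6.84 to 6.95 in knockout and 6.76 to 7.06 in wild-type arrays, with Ttr and Dct, the brightest, at -0.01 and -0.18. Of 8 tested markers of pericytes and smooth muscle 0 passed, with a median of 0.09. Their mean, which includes Rgs5, was 6.25 to 6.36 in knockout and 5.94 to 6.14 in wild-type arrays. The brightest, Acta2, was at -0.05, and Rgs5 had the largest difference, 2.14 (limma adjusted p = 0.142). With array weights 1 pigment epithelium gene was called lower and 1 gene of pericytes and smooth muscle higher. The count called higher in the latter list was 0 in 14 of the 16 alternatives. Lens markers ranged from 6.80 to 10.7 in knockout and from 5.997 to 8.12 in wild-type arrays, with 0 of 11 called, and their brightest genes, Cryba1 and Crygs, differed by 0.94 and 0.84. The lens median was 0.84, but -0.39 without knockout replicate 1 and -0.01 without wild-type replicate 2. Without knockout replicate 1, the array with the most lens signal, Optc differed by -2.98 and Ogn by -2.02.

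**Figure D4:**
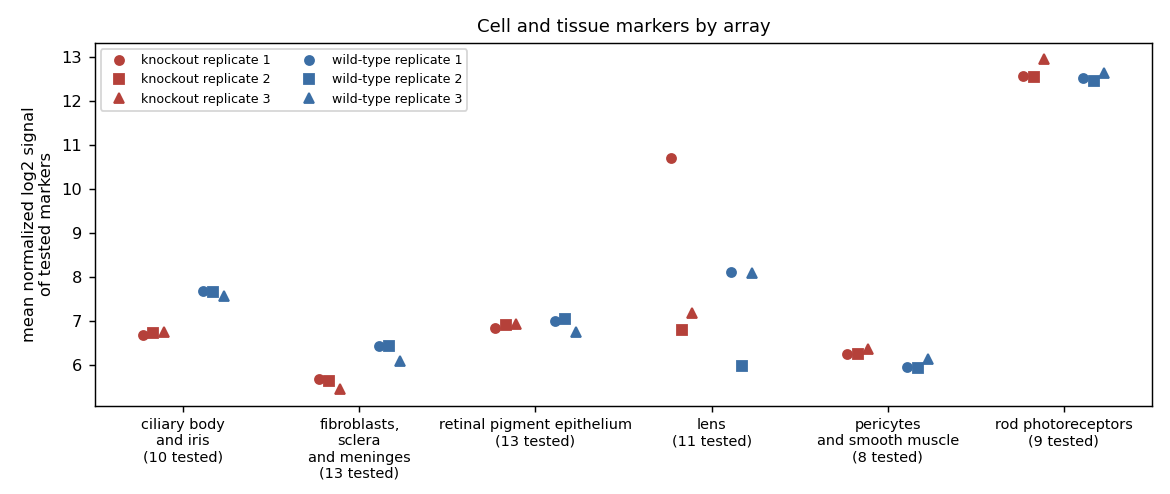
Mean normalized log2 signal (vertical axis) of the tested markers of 6 cell or tissue types on each array, with knockout (red) left of wild-type (blue). The ciliary body and iris list lies at 6.69 to 6.75 in knockout and 7.58 to 7.70 in wild-type arrays, a mean that includes its 5 genes called lower. Lens markers peak at 10.7 in knockout replicate 1.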

How the data were processed

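Biotin-labelled cRNA from retinal RNA was read out with GenomeStudio, per the submitters' processing notes, with no version named there. Per the file headers, the authors deposited raw linear bead intensities and, for each of them, a detection p-value. Their normalized intensities equal the raw ones minus 1 constant per array (largest deviation 0.1), and a series-wide table holds the same values, with 0 differences. Raw intensities were corrected and normalized with neqc of limma 3.58.1 in R 4.3.3 (normexp with negative controls inferred from detection p, offset 16, quantile, log2). Probes with a detection p under 0.05 on at least 3 of 6 arrays were fitted by genotype alone with lmFit and eBayes, and 2-sided p-values were adjusted over 19921 probes (Benjamini-Hochberg, threshold 0.05). The offset compresses changes of dim probes. A gene in a list was read by its brightest tested probe. Symbols came from the platform's annotation, with 1 symbol for 34885 probes, several for 18 and none for 10378, and the gene identifiers of all 17 member probes matched the reference gene table, used for names and gene order. The members and lists were chosen with earlier results of these data known. Genes named in the lists are all that passed, or else the smallest p (pathways) or the brightest 2 (markers), and any other named member was chosen after its values were seen. The fit was tested on simulated data. Alternatives were other normalizations, offsets and filters, 1 probe per gene, other variance models, array weights, leaving out each array and a block. Figures were drawn with matplotlib 3.10.9.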

Additional observations from a re-analysis of the deposited data

How the results depend on the processing

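Optc and Ogn were lower in sign in all 16 alternatives, which is no sign of stability since they were selected on these arrays, and their sizes differed between treatments of background. Optc differed by -1.81 with quantile normalization of raw signal, -2.91 with median scaling, -3.59 with the authors' table (values under 16 set to 16) and -2.00 with an offset of 50, and by -2.98 to -2.88 with 1 array left out. Ogn differed by -1.14, -1.89, -2.55 and -1.28 in the same order, and by -2.11 to -1.79 with 1 array left out. The number of member genes called was 2 to 3 in the other alternatives and 4 with array weights, which describes that choice. Of all probes, 435 were called (29.9% higher), against 223 with the authors' table, 920 with array weights (41.1% higher) and 202 to 382 with 1 array left out. It was 268 and 202 without wild-type replicates 1 and 2, and 237, 226 and 270 without knockout replicates 1, 2 and 3. The numbers in the sample titles are shared by 2 pairs, whose deviations from the group means correlated at -0.02 and -0.28. These numbers were therefore not taken to pair the samples. Knockout and wild-type arrays with the same replicate number, which follows sample order, correlated at 0.276, 0.314 and 0.365. All other pairs lay between -0.28 and 0.09. Whether sample order pairs the arrays was not tested, and no block by it was fitted. With the number in the sample titles as a block, 282 probes were called (19.2% higher), Optc differed by -2.96 and Ogn by -2.18. Differences in that fit rest on the 2 pairs that share a title number. Wild-type replicate 3 and knockout replicate 1 each had a block to themselves. The Vldlr call was also lost with the authors' table (limma adjusted p = 0.125) and with the block (0.113). Fmod differed by -0.49 with quantile normalization of raw signal and -0.46 with an offset of 50. Where calls were lost, the cause was not tested. Signal near background limits Optc, Fmod and the members that could not be measured. Ogn was above background but dim on the knockout arrays, and its difference ran from -2.55 to -1.14 over the alternatives.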
